A study of Caenorhabditis elegans with 2 samples.

Results

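The 346 genes annotated as snoRNA on the nuclear chromosomes of Caenorhabditis elegans were examined for chromatin immunoprecipitation (ChIP-seq) signal of the zinc finger protein ZIM-3. They were all members of this biotype among the 46890 genes of Ensembl release 115 on the WBcel235 assembly, which has the same sequence as ce11. Each was taken as its gene body plus 500 bp on either side and was scored by the highest signal of any deposited region with its summit in that window. The genes were divided into 178 that lay wholly inside an intron of a protein-coding gene and 168 that lay outside such introns.

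The study held 1 group of 2 samples labelled as biological replicates. The animals were whole young adults of strain OP581, with the genotype unc-119(tm4063) III; wgIs581, of pooled sexes, taken 54.5 h after L1 larvae starved after bleaching had been synchronised. ZIM-3 was expressed from a transgene with GFP-FLAG at its C-terminus, and the immunoprecipitation was with anti-GFP. The sources used here do not give the promoter of the transgene or say whether untagged ZIM-3 remained, and no untagged or control sample was analysed here. The share of the signal that does not depend on ZIM-3 was therefore not tested, and no comparison between conditions and no test was possible. Values are descriptions, given for the pooled list and for each replicate.

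Small nucleolar RNAs guide chemical modification of ribosomal and spliceosomal RNAs. Box C/D snoRNAs direct ribose methylation by fibrillarin, and box H/ACA snoRNAs direct pseudouridylation by dyskerin. In animals many snoRNAs are cut out of the introns of host genes, while others have promoters of their own, read by RNA polymerase II or RNA polymerase III. A promoter of the tRNA type consists of an A box and a B box, which TFIIIC binds to bring in RNA polymerase III. In tRNA genes these boxes lie within the gene, and in C. elegans some snoRNA genes have such boxes upstream. ZIM-3 is known for its role at the meiotic pairing centres of chromosomes.

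The sequences just upstream of the snoRNA genes are shown first, because some of the genes with high signal had a tRNA-type promoter pair there. A pair of boxes was searched for in the 120 bp before each gene start, on the strand of the gene. The A box was taken as TGGCNNAGT and the B box as GGTTCGANT, with the first bases of the boxes 30 to 70 bp apart. Together they have 15 fixed letters, 7 in the A box and 8 in the B box, and a gene was called a carrier when its best pair matched at least 12. That limit was the lowest at which under 1% of protein-coding genes had a pair. The boxes, the window and the spacing were chosen after the upstream sequences of high-signal snoRNA genes had been seen, so the shares of carriers called are a description and not independent evidence.

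The following are 100 bp of upstream sequence and the first 30 bp of the gene, 5′ to 3′ on the gene's strand, from the RefSeq WBcel235 genome, with the best pair in capitals. They were among the highest members outside introns (W03C9.9, chrII:11960798-11960927, plus strand; Y75B12B.12, chrV:15191064-15191193, minus strand; F32E10.10, chrIV:7574022-7574151, plus strand; T06C12.16, chrV:15873897-15874026, minus strand) and inside introns (T03F7.8, chrV:11314158-11314287, plus strand; C51F7.3, chrV:12303608-12303737, plus strand; C10C6.8, chrIV:11474162-11474291, minus strand). Only pairs lying wholly before the gene start were scored. On that rule T06C12.16 and C10C6.8 matched 11 letters and so fell just short of a carrier, C51F7.3 matched 12, and the others matched 13. In T06C12.16 the marked B box also holds GGTTCGA, beginning just after its first base. A B box read from there would run into the gene and was not scored, so the count of 11 depends on where the search ended.
W03C9.9: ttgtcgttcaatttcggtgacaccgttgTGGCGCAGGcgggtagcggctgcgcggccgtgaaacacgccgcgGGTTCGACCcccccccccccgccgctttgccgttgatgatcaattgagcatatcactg
Y75B12B.12: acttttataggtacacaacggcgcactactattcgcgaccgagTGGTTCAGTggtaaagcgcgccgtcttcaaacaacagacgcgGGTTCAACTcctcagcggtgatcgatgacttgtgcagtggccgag
F32E10.10: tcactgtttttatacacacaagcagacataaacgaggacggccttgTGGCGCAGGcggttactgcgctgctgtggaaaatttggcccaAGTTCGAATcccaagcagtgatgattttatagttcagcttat
T06C12.16: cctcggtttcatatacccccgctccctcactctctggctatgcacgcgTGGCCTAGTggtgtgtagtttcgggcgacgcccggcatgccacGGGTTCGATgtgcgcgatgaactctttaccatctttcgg
T03F7.8: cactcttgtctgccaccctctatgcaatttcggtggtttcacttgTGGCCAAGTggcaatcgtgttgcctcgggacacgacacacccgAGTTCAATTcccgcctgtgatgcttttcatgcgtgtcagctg
C51F7.3: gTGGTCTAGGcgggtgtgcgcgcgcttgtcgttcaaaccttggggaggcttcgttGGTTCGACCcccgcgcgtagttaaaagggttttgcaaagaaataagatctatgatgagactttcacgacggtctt
C10C6.8: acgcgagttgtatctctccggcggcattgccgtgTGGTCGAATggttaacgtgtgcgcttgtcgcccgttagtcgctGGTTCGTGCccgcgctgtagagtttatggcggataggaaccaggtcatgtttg

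A further 3 carriers, picked after their values were seen, had many matches but differed widely in signal. Y43F8C.22 (chrV:19643158-19643287, minus strand) matched all 15 letters and was called in every list, Y59E1B.14 (chrX:1891409-1891538, plus strand) matched 14 and was called in none, and T23B12.13 (chrV:8466368-8466497, plus strand) matched 13 and had no region in any list.
Y43F8C.22: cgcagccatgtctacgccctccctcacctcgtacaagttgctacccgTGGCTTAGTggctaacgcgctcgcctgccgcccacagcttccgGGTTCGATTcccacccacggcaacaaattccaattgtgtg
Y59E1B.14: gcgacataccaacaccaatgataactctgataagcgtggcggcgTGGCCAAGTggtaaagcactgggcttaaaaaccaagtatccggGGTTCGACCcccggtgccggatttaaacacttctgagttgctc
T23B12.13: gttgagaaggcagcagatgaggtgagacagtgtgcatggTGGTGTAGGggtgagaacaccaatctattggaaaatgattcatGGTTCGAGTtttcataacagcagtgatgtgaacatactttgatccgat

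A second kind of upstream sequence held G- and C-rich 7-mers that were rare before protein-coding genes, and none of the genes with them reached 12 matches of the pair. These 7-mers are in capitals in Y53F4B.47 (chrII:15025864-15025993, minus strand), where 3 of them overlap and GGAACCC is the last, and in ZK994.7 (chrV:8500479-8500608, plus strand), where the match is TGTCGGC.
Y53F4B.47: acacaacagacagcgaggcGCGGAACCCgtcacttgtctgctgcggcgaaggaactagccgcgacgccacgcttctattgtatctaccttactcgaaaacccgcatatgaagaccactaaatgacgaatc
ZK994.7: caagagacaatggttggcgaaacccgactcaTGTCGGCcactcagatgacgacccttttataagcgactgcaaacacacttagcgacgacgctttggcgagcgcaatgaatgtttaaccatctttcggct

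Signal here is the height that the authors deposited for each region. Each of the pooled, replicate 1 and replicate 2 lists held 30000 regions, which include background. A gene was called when its highest region was among the 906 highest of the list. In the pooled list these 906 are the authors' peaks past the irreproducible discovery rate (IDR) threshold, with signals from 140.7 upward. The signal at rank 906 was 105.8 in replicate 1 and 43.3 in replicate 2, and the lists ended at 50.5, 38.5 and 15.1 for pooled, replicate 1 and replicate 2. Signal scales differed between lists, so ranks within a list are given beside signals. A gene without a region had no summit in its window in that list, which does not place its signal at 0 or below the end of the list. For instance, W01C9.6 had no pooled region but stood at rank 171 in replicate 1 and rank 74 in replicate 2. Read depth is unknown, so depth cannot be set beside any difference between replicates.

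Of the 346 snoRNA genes, 73 were called in the pooled list, which is 21.1%. The count was 73 in replicate 1 (21.1%) and 75 in replicate 2 (21.7%), and 63 genes were called in both, which is 86.3% of the calls of replicate 1 and 84.0% of those of replicate 2. The same rule called 3.47% of all 46890 annotated genes in the pooled list, 3.43% in replicate 1 and 3.30% in replicate 2. Among other classes it called 41.7% of tRNA genes, 11.6% of snRNA genes, 4.21% of miRNA genes and 4.45% of protein-coding genes, whose windows are longer because their gene bodies are. Genome tiles of 1130 bp, the median snoRNA window, were called in 0.993% of cases. The snoRNA genes thus stood between tRNA genes and snRNA genes in the share called. Any pooled region, background included, lay in the windows of 230 snoRNA genes (66.5%), against 40.2% of all annotated genes and 29.3% of tiles. At the other end, 81 snoRNA genes had no region in any list.

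The called snoRNA genes were mostly the same in both replicates. Of the 73 pooled calls, 62 were called in both replicates, 7 in replicate 1 only, 3 in replicate 2 only and 1 in neither. A further 13 genes were called in a replicate but not in the pooled list. Among them, C06A1.9 stood at rank 35 in replicate 1 and had no region in replicate 2 or the pooled list. The 73 genes called in the pooled list had 71 distinct summits, because C51F7.3 shared one with C51F7.4 and C27H5.9 shared one with C27H5.10. No 2 snoRNA genes had the same gene sequence.

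**Figure D1:**
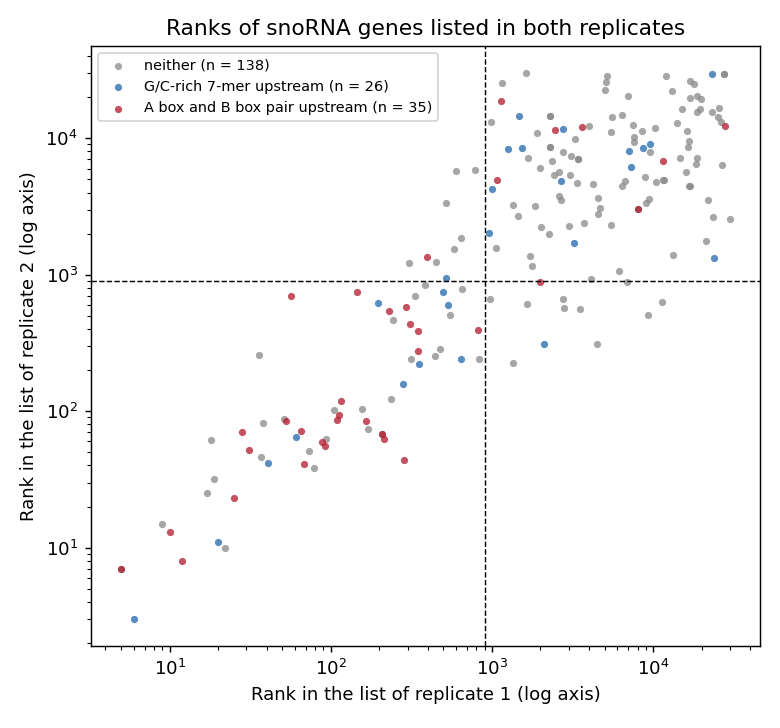
Rank of the highest region at each snoRNA gene listed in both replicates, replicate 1 against replicate 2 on log axes, with dashed lines at rank 906. Red points carry the upstream A box and B box pair, blue points a G- and C-rich 7-mer and grey points neither. Of the genes called in either replicate, 63 lie in the lower left field, below both lines.

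The contrast between genes inside and outside introns was small and changed sign between replicates. In the pooled list 39 of 178 genes inside introns (21.9%) and 34 of 168 outside (20.2%) were called, a difference of -1.67 percentage points, outside minus inside. In replicate 1 the shares were 20.8% inside and 21.4% outside, so the difference was 0.642 points without replicate 2. In replicate 2 they were 22.5% and 20.8%, so it was -1.64 points. Median signal over the genes with a pooled region was 100.4 inside (126 genes) and 108.1 outside (104 genes), and that difference was 0.840 in replicate 1 and -1.39 in replicate 2, also with opposite signs. Genes inside introns had the better median rank over all members, 10327.5 against 17438.5 in the pooled list, and more of them had some region (70.8% against 61.9%). These medians place genes without a region after every listed rank, so they also reflect how many genes had a region.

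Protein-coding gene starts were more often close to genes inside introns, and their part in this contrast was not tested. A protein-coding start lay in the window of 34.8% of the genes inside introns and 19.6% of those outside. Without all such members the shares called were 24.1% inside (28 of 116) and 18.5% outside (25 of 135) in the pooled list, but 20.7% and 19.3% in replicate 1 and 21.6% and 18.5% in replicate 2. Of the genes inside introns, 150 lay on the strand of the host gene and 28 on the other strand. Called shares were 20% on the same strand and 32.1% on the opposite strand in the pooled list, 19.3% and 28.6% in replicate 1, and 21.3% and 28.6% in replicate 2. The opposite-strand share rests on 9 called genes, of which C27H5.9 and C27H5.10 share a summit.

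**Figure D2:**
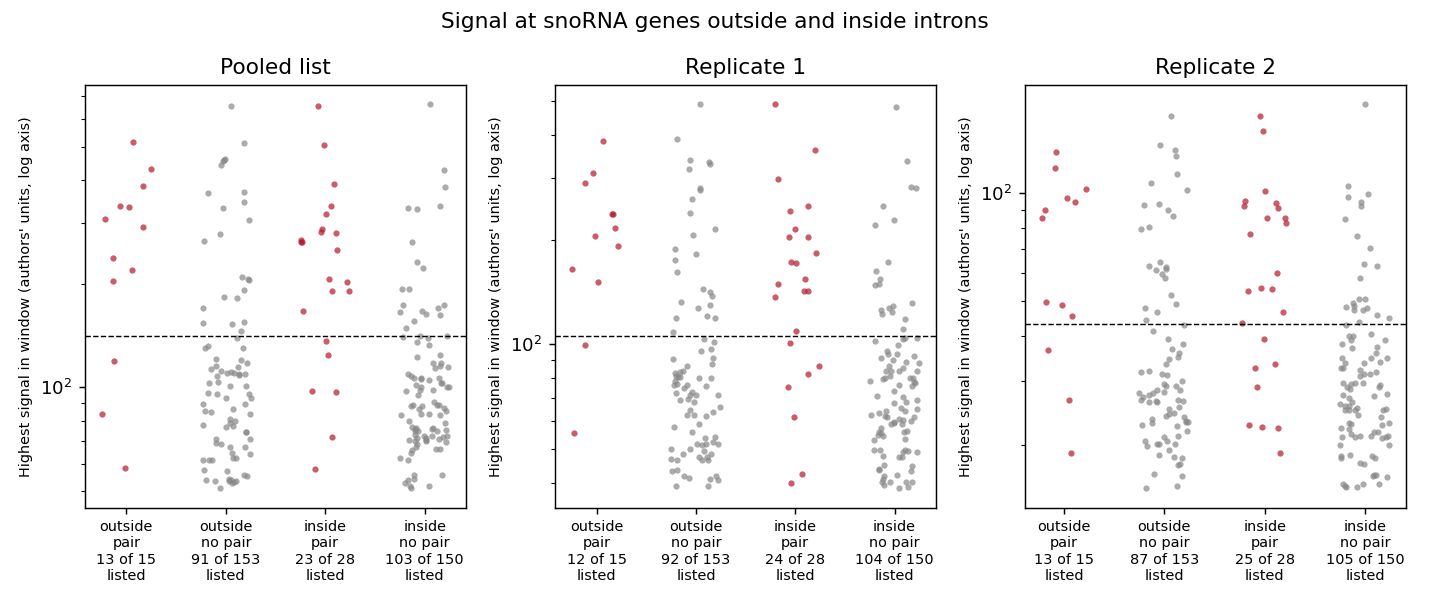
Highest signal in the window of each snoRNA gene with a region in the pooled list (left), replicate 1 (middle) and replicate 2 (right), on log axes that differ between panels, by position and by the upstream pair (red with, grey without). The dashed line is the signal at rank 906, and the labels give how many members had a region, such as 13 of 15 outside with the pair in the pooled list; points above the line are frequent with the pair both inside and outside introns.

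The snoRNA genes with the upstream pair were called more often than the others, both inside and outside introns. The pair was present before 43 of the 346 genes (12.4%), against 0.901% of protein-coding genes, 7.75% of snRNA genes, 3.83% of miRNA genes and 0.817% of tRNA genes searched in the same upstream window. The limit of 12 matches was set so that the protein-coding share is under 1%. Inside the gene itself, 93.0% of tRNA genes had such a pair. Of the 180 protein-coding genes with the pair upstream, 9 were called in the pooled list (5.00%), against 4.45% of all protein-coding genes. Called carriers of the other classes were 0 of 10 snRNA, 2 of 10 miRNA and 2 of 5 tRNA genes. Of the 43 snoRNA carriers, 27 were called (62.8%) in the pooled list, 27 in replicate 1 and 27 in replicate 2, with 26 called in both replicates. Of the 303 other genes, 46 were called in the pooled list (15.2%), 46 in replicate 1 (15.2%) and 48 in replicate 2 (15.8%). The median rank over all members was 282 with the pair and 13403 without it in the pooled list, 294 and 15009 in replicate 1, and 433 and 14291 in replicate 2. Genes without a region were again placed after every listed rank.

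The share was close to the same in each position. Inside introns 17 of 28 carriers (60.7%) and 22 of 150 others (14.7%) were called. Outside introns 10 of 15 carriers (66.7%) and 24 of 153 others (15.7%) were called. The carriers' counts were the same in each replicate as in the pooled list. Among genes with no protein-coding start in the window, 21 of 35 carriers (60%) and 32 of 216 others (14.8%) were called. No carrier had an annotated tRNA, snRNA or miRNA gene in its window.

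The called share was not graded at low matches and was higher from 11 matches on. With 8 matches 16.1% of 31 genes were called, with 9 it was 9.82% of 112, and with 10 it was 11.7% of 103. With 11 matches 31.6% of 57 genes were called, with 12 it was 54.2% of 24, and with 13 to 15 it was 73.7% of 19. Replicate 1 gave 35.1% at 11 matches and the same shares as the pooled list from 12 on. The 100 genes with 11 or more matches held 45 of the 73 called genes, and the 246 with 10 or fewer held 28.

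**Figure D3:**
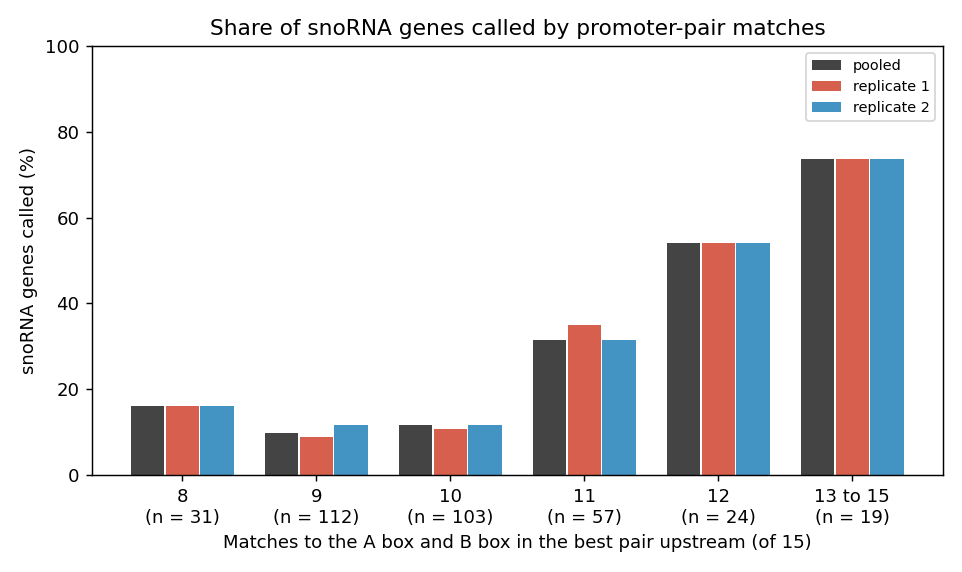
Percent of snoRNA genes called, by the number of matches of the best upstream A box and B box pair, in the pooled list and each replicate. Bars run from 9.82% at 9 matches to 73.7% at 13 to 15 matches in the pooled list, and n is the number of genes in each class.

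Most of the called carriers had their summits close to the pair. In carriers the first base of the A box lay at a median of -60 bp from the gene start and that of the B box at -17 bp, where -1 is the last base before the gene, a spacing of 43 bp. The summits of the 27 called carriers lay at a median of -4.50 bp from the middle of the pair. They fell within 50 bp of that middle in 24 of the 27, and between the first base of the A box and the last base of the B box in 20. Of these summits, 25 (92.6%) lay within 100 bp upstream of the gene start, whereas 18 of the 46 summits of called genes without the pair (39.1%) did. Over all 73 called genes the median summit lay at -28.0 bp, and it was -32.0 bp in replicate 1 and -31.0 bp in replicate 2. Of the 73, 48 summits were upstream, 16 in the gene and 9 downstream. With the gene body alone in place of the window, 16 genes were called and the difference between carriers and others was 0.0307 percentage points, against 47.6 with the 500 bp flanks. Among the 157 genes with a pooled region that were not called, the median was 51.0 bp and 20 (12.7%) lay within 100 bp upstream. Regions had a fixed width of 376 bp, so a summit is in most cases the centre of such an interval.

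**Figure D4:**
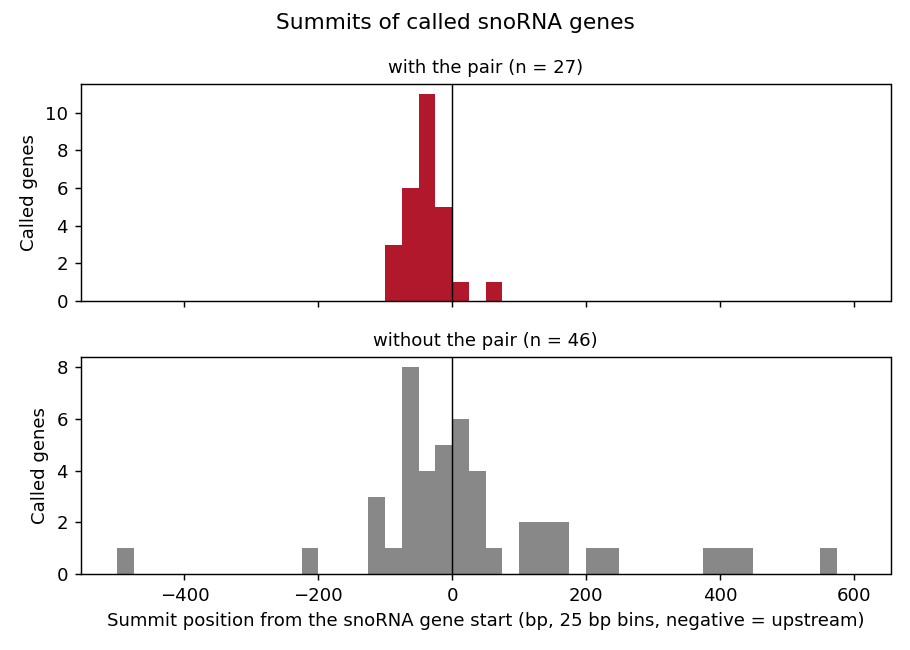
Position of the summit from the gene start, in 25 bp bins with upstream negative, for the 27 called snoRNA genes with the upstream pair (top) and the 46 without it (bottom). With the pair all but 2 summits lie in the 100 bp before the start, and without it they spread from -483 to 553 bp.

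The highest members outside introns were led by C51F7.4, with a signal of 655.2 in the pooled list, 490.2 in replicate 1 and 163.7 in replicate 2, at ranks 5, 5 and 7. Its summit, 10 bp inside the gene, is also the summit of C51F7.3, the next snoRNA gene downstream and an intronic one in frm-7, a gene for a FERM-domain protein. The windows of both genes take in this summit, and the pair of C51F7.3 lies within the body of C51F7.4. C51F7.3 has the boxes of the C/D class, and C51F7.4 could not be assigned to a class.

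W03C9.9, a C/D-like gene outside introns, had signals of 515.6, 385.3 and 129.8 in the pooled, replicate 1 and replicate 2 lists, at ranks 9, 10 and 13. Y23H5B.10 had 513.8, 388.5 and 126.7, at ranks 10, 9 and 15. Both had summits upstream of the start, at -71 and -41 bp, and W03C9.9 matched 13 letters of the pair and Y23H5B.10 matched 11. T06C12.16 had 441.7, 335.1 and 107.0 at ranks 19, 19 and 32. Y75B12B.12 had 430.4, 310.0 and 117.7 at ranks 21, 25 and 23. F32E10.10 had 385.6, 290.0 and 97.2 at ranks 31, 31 and 52. These 3 genes, whose upstream sequences are printed, kept similar places in both replicates. H09I01.2, with 11 matches, had 367.8, 278.5 and 86.3 at ranks 36, 38 and 82.

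Other high members outside introns fell short of 12 matches. ZK265.10 had 458.0, 319.6 and 136.0 at ranks 16, 22 and 10, with 11 matches. F39B2.14 had 454.1, 337.8 and 112.9 at ranks 17, 17 and 25, with 10 matches and a summit at -107 bp, and a protein-coding start lay in its window as in that of ZK265.10. Y74C9A.6, a C/D-like gene with a G- and C-rich 7-mer, had 461.6, 328.8 and 132.2 at ranks 15, 20 and 11, and Y53F4B.47, whose 7-mers are printed, had 369.7, 262.3 and 102.1 at ranks 35, 41 and 42. T02E1.9 differed most between the replicates in this set, with 344.4, 282.2 and 61.2 at ranks 48, 36 and 257.

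Inside introns the highest member was ZK994.7 in pxn-1, a peroxidasin gene, with 664.8 in the pooled list, 480.9 in replicate 1 and 176.8 in replicate 2. Its ranks were 4, 6 and 3, ahead of every other snoRNA gene in the pooled list. It has a TGTCGGC 7-mer and a summit 3 bp before its start, and its best pair of 11 matches lies farther upstream, from -120 bp. T03F7.8, on the opposite strand in the cuticlin-like gene cutl-18, had 506.8, 360.7 and 148.4 at ranks 11, 12 and 8. C10C6.8 in catp-8, a gene for a cation-transporting ATPase, had 429.0, 337.0 and 94.3 at ranks 22, 18 and 61. Their summits lay at -43 and -53 bp, on the pairs printed above.

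The other named members inside introns had pooled signals from 287.6 to 389.4. F55A11.10, a C/D-like gene in F55A11.6, had 389.4, 299.4 and 90.8 at ranks 30, 28 and 70. F38E11.14 in cng-3, a cyclic nucleotide-gated channel gene, had 382.9, 280.5 and 99.4 at ranks 32, 37 and 46. D1046.6 in cfim-2, a gene for an mRNA cleavage factor subunit, had 336.0, 249.5 and 85.3 at ranks 52, 53 and 85. The first of these is a carrier, the next has 11 matches and the last is an H/ACA-like carrier. T04A8.17, on the opposite strand of ppat-1, had 335.2, 249.7 and 85.0 at ranks 55, 51 and 88. B0334.12, on the opposite strand of the potassium channel gene twk-5, had 331.1, 227.9 and 97.7 at ranks 58, 73 and 51. C27H6.5 in unc-41, a gene of synaptic vesicle recycling, had 330.0, 220.6 and 104.9 at ranks 59, 79 and 38. B0334.12 was unlike the rest in having its summit 124 bp downstream of the start and only 10 matches. C04G6.12, opposite to the MAP kinase gene mpk-2, had 318.6, 214.4 and 94.9 at ranks 67, 92 and 56. ZK484.9, opposite to haf-9, an ABC transporter gene, had 287.6, 203.3 and 82.7 at ranks 94, 112 and 93.

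Together these 24 named genes had 23 distinct summits. Of the 24, 9 were carriers, 20 had 11 or more matches, 3 had a G- and C-rich 7-mer, 15 were at most 80 bp long and 20 had the summit upstream of the start. Ranks of 100 or better in both replicates were held by 22 of them, the exceptions being T02E1.9 and ZK484.9.

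At the other end of the calls, C08D8.3 had the lowest called signal, 140.9 at pooled rank 903, with 85.3 at rank 2115 in replicate 1 and 58.2 at rank 310 in replicate 2. Just outside, Y24D9A.9 had 140.0 at pooled rank 920, with 110.9 at rank 781 in replicate 1 and 27.7 at rank 5835 in replicate 2. The replicates thus placed these neighbours in opposite orders. A further 3 called genes had no region of rank 2000 or better in replicate 2, namely ZK20.9 (rank 3352), B0379.13 (rank 5769) and C16D9.11 (rank 2017).

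There were 16 carriers that were not called in the pooled list. R12E2.17 in rpn-8, a proteasome subunit gene, matched 14 letters and came closest with 136.1 at rank 1024, and its ranks were 1078 in replicate 1 and 4979 in replicate 2. T24H7.6, also with 14 matches, had 124.0 at rank 1425 and was called in replicate 2 alone, at rank 886. Y59E1B.14 on the X chromosome had 58.2 at pooled rank 22202, no region in replicate 1 and 36.7 at rank 1850 in replicate 2.

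Few snoRNA genes of the X chromosome were called. On X 2 of 33 genes (6.06%) were called in the pooled list and in each replicate, against 71 of 313 on the autosomes (22.7% pooled, 22.7% in replicate 1, 23.3% in replicate 2). The 2 were C53B7.8, a carrier with 291.6 at rank 88, and M163.14, with 183.4 at rank 395. The summit of M163.14 lay 445 bp downstream of its start, beyond the gene, and its window also held a tRNA, snRNA or miRNA gene. Which of these genes that summit belongs to was not tested. Of the carriers, 1 of 4 on X and 26 of 39 on autosomes (66.7%) were called, and of the other genes 1 of 29 on X (3.45%) and 45 of 274 on autosomes (16.4%). Among autosomes the called share ran from 16.7% on chromosome III, where the replicates gave 13.0% and 14.8%, to 27.0% on chromosome I, where they gave 27.0% and 29.7%. On chromosome I the genes outside introns had the larger share, 34.1% (14 of 41) against 18.2% (6 of 33) inside. On chromosome V the order was the other way, with 13.6% outside (3 of 22) and 30.3% inside (10 of 33). In replicates 1 and 2 chromosome I gave 34.1% and 34.1% outside, and 18.2% and 24.2% inside. Chromosome V gave 18.2% and 13.6% outside, and 24.2% and 27.3% inside. The share of all annotated genes called was not computed for X or for single autosomes. Whether these differences between chromosomes are particular to snoRNA genes was therefore not tested.

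The G- and C-rich 7-mers were before 39 snoRNA genes (11.3%), 27.9% of snRNA genes and 0.526% of protein-coding genes. The rule for 7-mers used no ChIP values. Among 7-mers of the 100 bp upstream that at least 20 snoRNA genes held, GGAACCC had the largest ratio of shares, 57.7, with 21 snoRNA genes against 21 protein-coding genes. Others over a ratio of 10, a limit set after the ratios were seen, were TGTCGGC and a pair of 7-mers that overlap GGAACCC by all but 1 or 2 bases. A last such 7-mer, TGGCGCA, resembles the start of the A box. Of the GGAACCC genes, 9 of 21 (42.9%) were called in the pooled list and 8 (38.1%) in each replicate, against 19.7%, 20% and 20.6% of the 325 others. For any of the 4 G- and C-rich 7-mers the count was 13 of 39 (33.3%), with 28.2% in each replicate. No gene had both a pair and such a 7-mer. Summits of the 13 called genes had a median of 45.0 bp, with 5 upstream, 5 in the gene and 3 downstream.

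TGGCGCA itself was before 20 genes, of which 15 (75%) were called in the pooled list and 14 (70%) in each replicate. GGTTCGA, the start of the B box, was before 12 genes, with 8 called in the pooled list, 8 in replicate 1 and 9 in replicate 2. The TATA box TATAAA, searched on the gene's strand, was before 22 genes (6.36%), of which 3 were called (13.6%), and 12.7% of protein-coding genes had it. Genes with neither a pair nor a G- and C-rich 7-mer numbered 264, and 33 of them (12.5%) were called, with 13.3% in replicate 1 and 14% in replicate 2. All these are matches of letters, and binding of a factor at them was not tested.

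Short snoRNA genes were called more often than long ones. Gene lengths ran from 54 to 344 bp, with a median of 130 bp. Of the 56 genes of at most 80 bp, 36 were called (64.3%), and 58.9% in each replicate. Of the 75 genes of 81 to 120 bp 16% were called, and of the 215 longer ones 11.6%, with 13.0% in replicate 1 and 14.4% in replicate 2. Length and pair went together in part, since 17 of the 56 short genes and 26 of the 290 longer ones were carriers. In the short class 16 of 17 carriers (94.1%) and 20 of 39 others (51.3%) were called. In the longer class 11 of 26 carriers (42.3%) and 26 of 264 others (9.85%) were called, so each property divided the genes within the classes of the other. The 17 short carriers had a median rank of 94 in the pooled list, 112 in replicate 1 and 86 in replicate 2. These length classes were drawn after the values were seen.

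**Figure D5:**
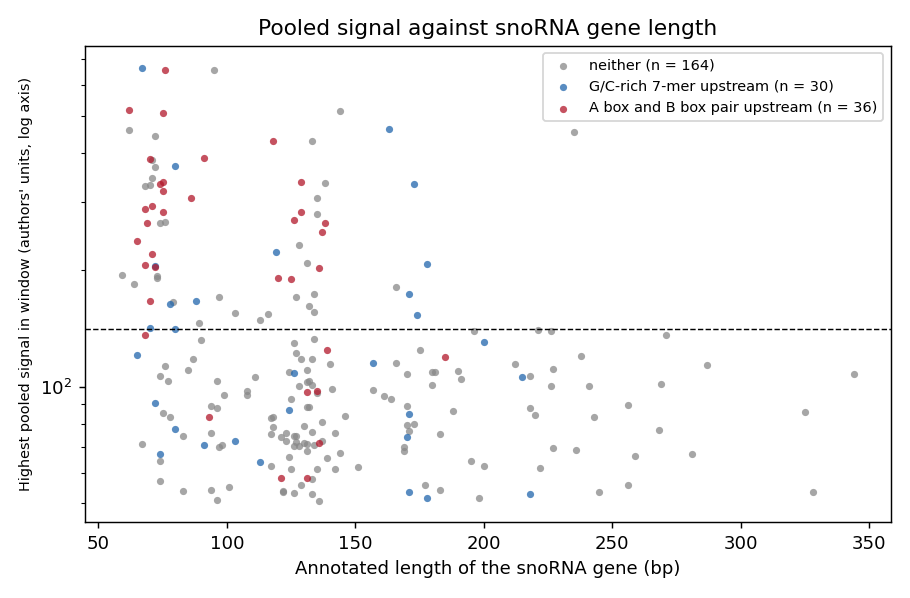
Pooled signal on a log axis against the annotated length of each snoRNA gene with a pooled region, in red with the upstream pair, in blue with a G- and C-rich 7-mer and in grey with neither. The dashed line is the lowest IDR signal, 140.7, and of the 56 genes of at most 80 bp 36 lie above it, against 37 of the 290 longer ones.

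Classing the genes by their own boxes gave a less certain order. Box C/D-like genes had TGATGA in the first 20 bases and CTGA near the end, which was met by 14 genes, and H/ACA-like genes were at least 100 bp long with ACA close to the 3′ end, met by 82. The other 250 were unclassed, so these classes cover a minority of the genes. Called shares were 42.9% for C/D-like, 24.4% for H/ACA-like and 18.8% for unclassed genes in the pooled list. The H/ACA-like rule leaves out all genes of at most 80 bp, of which 64.3% were called, so the class difference cannot be told apart from length. The C/D-like minus H/ACA-like difference was 18.5 points, and it was 14.8 points in replicate 1 and only 8.89 points without replicate 1. A looser box C (GATG or ATGA in the first 25 bases), chosen after seeing how few genes the strict one took, put 46 genes in the C/D-like class, of which 24 (52.2%) were called, with 50% in each replicate. The pair was more frequent in the C/D-like class, with carriers making up 6 of its 14 genes, 12 of the 82 H/ACA-like and 25 of the 250 unclassed genes. Of these carriers 4 of 6, 7 of 12 and 16 of 25 were called.

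The 178 intronic genes lay in 159 host genes, of which 17 held more than 1. Hosts for ribosomal proteins, of which there were 13, held 19 snoRNA genes with 4 called (21.1%), against 35 of 159 in other hosts (22%). The replicates gave 26.3% and 15.8% for ribosomal hosts and 20.1% and 23.3% for others. The 3 hosts with the most members had none called. nol-56, which encodes a core protein of box C/D snoRNPs, held 4 snoRNA genes at pooled ranks from 10000 to 12401. rpl-6, for a ribosomal protein of the large subunit, held 3, at ranks 5645 and 14526, and top-2, for a DNA topoisomerase, held 3 with no pooled region. An IDR summit lay within 500 bp of the host's own start in 11 of the 159 hosts (6.92%), against 1.62% of all protein-coding starts, and in 5 of the 11 it was the summit of a called snoRNA gene.

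Genes for the proteins that make, bind or transcribe snoRNAs were examined at their own starts. Of a list of 34 such genes 28 were found in the annotation, 13 had a pooled region within 500 bp of the start and 1 was called (3.57% of those found), against 1.62% of all protein-coding starts, so the share rests on a single gene. The called gene was ints-13, for a subunit of the Integrator complex, with 185.6 at rank 380, and it had 145.4 at rank 332 in replicate 1 but 36.1 at rank 1975 in replicate 2. Next came nola-3, for a small H/ACA core protein, with 136.0 at rank 1027 and replicate ranks of 1131 and 920. rpc-2, for a large subunit of RNA polymerase III, had 124.6 at rank 1401, with ranks 3889 and 474, and fib-1, for fibrillarin, had 132.9 at rank 1107, with ranks 1103 and 5296. No region at the start of rpc-1, brf-1 or snpc-4 was in any list.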

How the data were processed

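The authors deposited region lists on ce11 for the pooled reads and for each of 2 replicates, with 30000 regions each, and an IDR-thresholded list of 906 peaks that equals the 906 highest pooled regions. The signal is the height that the authors deposited for each region, made with a control library per the deposited file lists; the sources used here give no aligner, peak caller or settings. Read depth is unknown. Lists on ce10 were not used. Regions were assigned to genes by summit with Python 3.11.15 and NumPy 2.4.6, and the steps were checked on simulated data. Sequences came from the RefSeq WBcel235 genome.

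The members and lists were chosen with earlier results of these data known. A total of 160 groupings of the genes were described, and none was tested. Named are the 12 highest genes inside and the 12 outside introns, those next to the lowest IDR signal, called genes with no region of rank 2000 or better in a replicate, the 3 hosts with the most members and called genes of the pathway list; genes named beyond these were chosen after their values were seen. Alternatives changed the flank, the rank limit, the intron rule, the box rules and the replicates.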

Additional observations from a re-analysis of the deposited data

How the results depend on the processing

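No paired analysis was possible because there is 1 group. Percentages are shares called, and differences are in percentage points, outside minus inside introns, C/D-like minus H/ACA-like, with minus without GGAACCC (23.2 as reported), X minus autosomes (-16.6 as reported) and with minus without the upstream pair (47.6 as reported); the cause of each shift was not tested. Of these, the sign of the intron difference depended on the setting, and the pair, 7-mer, C/D and X differences kept their sign under each alternative run. With no flank, which leaves out the upstream summits, 16 genes were called, 6.55% outside and 2.81% inside introns, and the differences were 3.74 for introns, 1.05 for C/D, 15.4 for the 7-mer, -5.11 for X and 0.0307 for the pair, with a median summit of 35.0 bp. With a flank of 200 bp the shares were 19.0% outside and 19.7% inside, the difference in median signal 1.59, the median summit -30.0 bp, and the differences 25 for the 7-mer, -18.1 for X and 49.6 for the pair. With 1000 bp they were 22% and 26.4%, -4.38 for introns, 5.67 in median signal, -31.0 bp for the summit, 9.93 for C/D, 19.8 for the 7-mer, -13.4 for X and 44.0 for the pair. Calling ranks of 2000 or better gave 26.2% and 28.7%, 23 for C/D, 21.5 for the 7-mer, -23.7 for X and 48.3 for the pair. The upper part of the IDR list, to rank 453, gave 17.3% and 15.2%, 2.09 for introns, 8.12 for the 7-mer, -11.2 for X and 50.6 for the pair. Counting any overlap of a region with the window gave 20.8% and 24.7%, -3.89 for introns, 13.6 for C/D, 21.3 for the 7-mer, -15.2 for X and 45.6 for the pair.

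Without members near another small RNA gene the median summit was -29.0 bp, the 7-mer difference 27.6 and the X difference -20. Without members with a protein-coding start in the window the shares were 18.5% and 24.1%, and the differences -5.62 for introns, 3.4 in median signal, 24.2 for the 7-mer, -15.4 for X and 45.2 for the pair. Counting shared summits once gave 12.8 for C/D and 46.7 for the pair. With introns of the same strand only, the shares were 21.9% outside and 20% inside, the intron difference 1.94 and that in median signal 9.99. With an intron in every spanning transcript, the share outside was 19.7% and the difference in median signal 0.845. A 7-mer from the 60 bp upstream gave 14.8, and the looser box C gave 27.8 for C/D. Asking for 11 matches of the pair gave 33.6, and asking for 13 gave 55.6; these and the looser box C, and all settings for the pair, were added after seeing the data. Leaving out a replicate gave 73 to 75 calls, 20.8% to 21.4% outside and 20.8% to 22.5% inside introns, an intron difference from -1.64 to 0.642, a difference in median signal from -1.39 to 0.840 against 7.67 in the pooled list, a median summit from -32.0 to -31.0 bp, and differences from 8.89 to 14.8 for C/D, 17.5 to 18.1 for the 7-mer, -17.3 to -16.6 for X and 46.9 to 47.6 for the pair. The differences in median signal from single replicates and from the pooled list are each on their own list's scale, so their sizes are not comparable. The unknown read depth limits what can be said of genes without a region in a list.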

Other observations

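The same pair was searched for within 75 bp of peaks that lie away from annotated tRNA, snoRNA and snRNA genes, on both strands. Of 604 such IDR summits, 54 (8.94%) had a pair of 12 or more matches and 18 (2.98%) one of 13 or more. Of 14857 pooled regions beyond rank 15000 away from such genes, 5.94% had 12 or more and 0.747% had 13 or more. The highest of the 18 summits lay in srt-52, a chemoreceptor-like gene of chromosome V, at pooled rank 38 with a signal of 367.4 and 14 matches. The next lay near pat-4 (rank 78, signal 306.6, 13 matches), in a pseudogene on X (rank 165, signal 245.4, 14 matches) and near sms-3 (rank 193, signal 234.5, 14 matches). Some of the rest lay in pseudogenes or non-coding RNA genes, and the summit at rank 247 lay 5 bp from the miRNA gene cel-mir-4936. Whether unannotated RNA genes lie there was not tested.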
